A study of Mus musculus with 27 samples.

Results

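Grhl1, Grhl2, Grhl3, Ovol1 and Ovol2 encode transcription factors of epithelial cells, and they were followed across 3 genotypes of a mouse kidney cell line. The 5 genes, all of the Grainyhead-like or Ovo-like family, were chosen by symbol out of the 24953 genes of the deposited expression table, and all 5 were found in it. Gene positions were those of GENCODE vM1 on the mm9 genome. The Grhl1 gene (ENSMUSG00000020656.9) was at chr12:25257152-25302256 (plus strand). The Grhl2 gene (ENSMUSG00000022286.9) was at chr15:37162791-37293324 (plus strand). The Grhl3 gene (ENSMUSG00000037188.7) was at chr4:135097803-135129545 (minus strand). The Ovol1 gene (ENSMUSG00000024922.1) was at chr19:5549137-5560575 and the Ovol2 gene (ENSMUSG00000037279.7) at chr2:144130911-144157882, both on the minus strand.

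The control group was unmodified mK4 cells, a line made from mouse metanephric mesenchyme, the tissue that gives rise to the nephron. Runx1KO cells were made from mK4 by CRISPR/Cas9 deletion of the Runx1 exon that carries the start codon used in these cells. ZebDKO cells were made from mK4 in the same way, by deletion of the start codon exons of both Zeb1 and Zeb2. None of the cells received a treatment as part of the assays. Per the study's methods, the knockout lines were made by transfection, puromycin selection and picking of clones, whereas control cells were the parental line. This handling goes with genotype and cannot be told apart from it. RNA-seq was done on 3 cultures of each genotype, whereas ATAC-seq (open chromatin) was done on control and Runx1KO cells only, and ChIP-seq for Runx1 and Runx2 on the same pair of genotypes. The number of clones sequenced for each genotype is not stated in the sources used here, so clone and genotype cannot be told apart, and each p-value measures only the spread between cultures.

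Grainyhead-like proteins bind DNA as dimers and switch on genes of cell junctions, of the epithelial barrier and of polarity. Ovo-like proteins are zinc finger repressors that hold mesenchymal genes down in epithelia. Zeb1 and Zeb2 are zinc finger repressors of epithelial genes that bind E-boxes with the letters CAGGTG or CAGGTA, and Grhl2 and Zeb1 are known to repress each other in several epithelial and carcinoma cells.

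The RNA-seq values are TPM, a unit that divides reads by the length of the gene and gives every library the same total, so that levels of different genes can be set side by side. The 9 libraries had between 12541 and 12697 genes at 1 TPM or more, and libraries of one genotype correlated at Pearson r between 0.994 and 0.996 on log2(TPM+1) across 13374 genes, which are not independent replicates. Zeb1, one of the genes targeted in ZebDKO, stood at 15.1, 14.2 and 15.6 TPM in control, 0.1, 0.2 and 0.2 TPM in Runx1KO, and 16.8, 16.6 and 14.8 TPM in ZebDKO libraries. Zeb2 stood at 5.5, 4.9 and 5.2 TPM, at 0.2 TPM in each Runx1KO library, and at 1.7, 1.8 and 1.6 TPM in ZebDKO. Runx1 stood at 15.6 to 18.7 TPM in control, 28.5 to 30.3 TPM in Runx1KO and 9.4 to 10.5 TPM in ZebDKO libraries. TPM is summed over a whole gene, so the loss of 1 exon need not lower it, and the levels of Runx1 in Runx1KO and of Zeb1 in ZebDKO do not check the labels. Of 11 metanephric mesenchyme markers, 6 reached 1 TPM in control cells, among them Pax2 and Osr1, whereas Six2 and Hoxd11 were listed at 0. The summed level of 5 simple epithelium markers was 2.7 to 4.5 TPM in control, 2421 to 2513 TPM in Runx1KO and 1103 to 1158 TPM in ZebDKO libraries, most of it Krt8, and its part in the results on the 5 genes was not tested. Fewer cells of a type and less RNA per cell cannot be told apart in such bulk samples.

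Genotypes were compared with limma on log2(TPM+1), two-sided, with p-values adjusted by Benjamini-Hochberg over all genes that reached 1 TPM in 3 or more of the 6 libraries compared. A gene was called when it passed 2-fold, a log2 fold change of 1 in size, at an adjusted p under 0.05. In Runx1KO against control 4 of the 5 genes passed the filter and 2 were called, Grhl2 and Ovol1, both higher, beside 7.91% of 13067 tested genes called higher and 5.1% called lower. Both had passed the filter through the Runx1KO group alone, so their count is no support by itself. In ZebDKO against control only Grhl1 and Grhl3 passed the filter and neither was called, beside 14.8% of 12974 genes called in either direction and 7.28% called lower. Both passed an adjusted p of 0.05 whatever the fold, as did 79.4% of the tested genes. In Runx1KO against ZebDKO 4 genes passed and 3 were called, Grhl1, Grhl2 and Ovol1, all higher in Runx1KO, beside 9.2% of 13071 genes called higher and 6.59% called lower. Grhl2 and Ovol1 again passed the filter with Runx1KO as the only group with all 3 libraries at 1 TPM, so this count is no support by itself either. All 4 passed an adjusted p of 0.05 whatever the fold, 3 of them higher and Grhl3 lower, beside 80% of the tested genes in either direction, 50.2% higher and 29.8% lower. The libraries of all 4 did not overlap in this comparison, as was the case for 81.7% of the tested genes. The first pair of comparisons shares its control libraries.

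**Figure D1:**
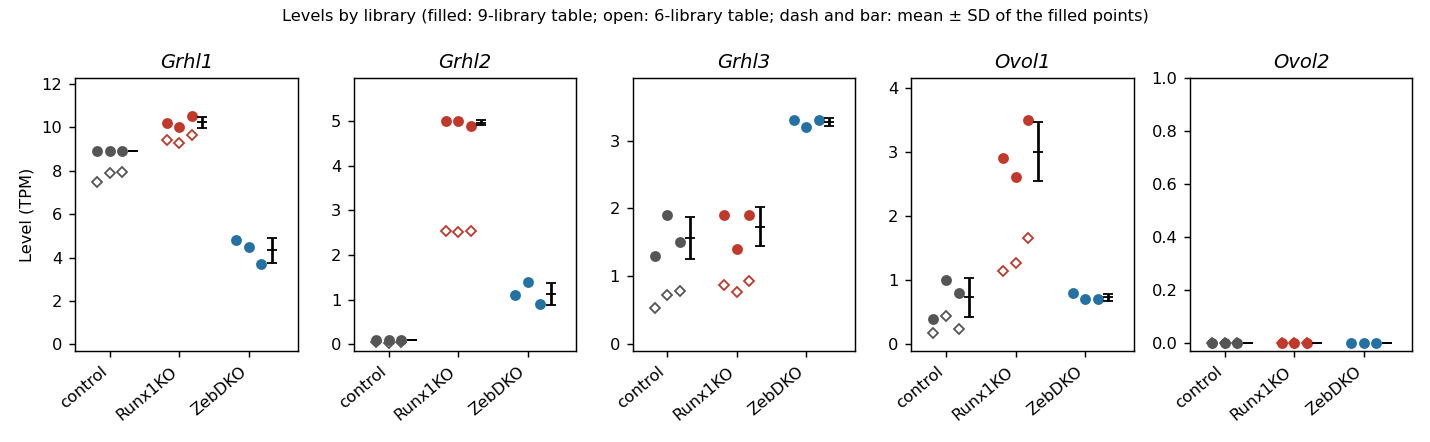
Level in TPM (vertical axes, scaled for each gene) of the 5 genes in each library of control, Runx1KO and ZebDKO cells (horizontal axis), with filled points for the table of 9 libraries, open diamonds for the table of 6 libraries with 2 decimals and bars for mean ± SD of the filled points. Grhl2 and Ovol1 were highest in Runx1KO, Grhl3 was highest in ZebDKO, Grhl1 was lowest in ZebDKO, and Ovol2 was listed at 0 in every library.

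The median log2 fold change of all tested genes was -0.18 in ZebDKO against control and 0.15 in Runx1KO against ZebDKO, so the whole table was shifted in both. Scaling by the median ratio between libraries removed that shift, and values under it are given beside the results whose call or size it moved. It moved the split of called genes from 972 higher and 944 lower to 1184 higher and 661 lower in ZebDKO against control. In Runx1KO against ZebDKO it moved the split from 1203 higher and 862 lower to 909 higher and 1058 lower.

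Grhl2, the family member best known as an activator of epithelial junction genes such as Cdh1 and Cldn4, was at the lowest level above 0 that the table prints in control cells and rose in Runx1KO cells. It was listed at 0.1 TPM in each of the 3 control libraries, at 5, 5 and 4.9 TPM in Runx1KO and at 1.1, 1.4 and 0.9 TPM in ZebDKO libraries. The 3 groups did not overlap, and ZebDKO lay between the other two. A value of 0.1 TPM is 1 step of rounding, so the table with 2 decimals was read for it. There Grhl2 stood at 0.05, 0.04 and 0.05 TPM in control and at 2.55, 2.51 and 2.54 TPM in Runx1KO libraries, a ratio of means of 54.3. Its Runx1KO level was lower in that table than in the first, and the gene lengths behind each table are not stated in the sources used here.

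On the scale of log2(TPM+1) the difference of Grhl2 between Runx1KO and control was 2.44 (95% interval 2.27 to 2.61, adjusted p = 2.07e-07). Adding 1 to TPM shrinks the fold change of such a low gene, and with 0.1 added in place of 1 the value was 4.66. Grhl2 missed the filter in ZebDKO against control, since only 2 of the 6 libraries reached 1 TPM. Its difference there was 0.95, and in a fit without the filter the 95% interval was 0.71 to 1.19 with an adjusted p of 0.00135, short of 2-fold on this scale. All 3 ZebDKO libraries lay above all 3 control libraries, as did one group over the other for 81% of the tested genes. Set directly against ZebDKO, Grhl2 was higher in Runx1KO by 1.49 (95% interval 1.26 to 1.72, adjusted p = 6.29e-06), and by 1.38 after median-ratio scaling.

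**Figure D2:**
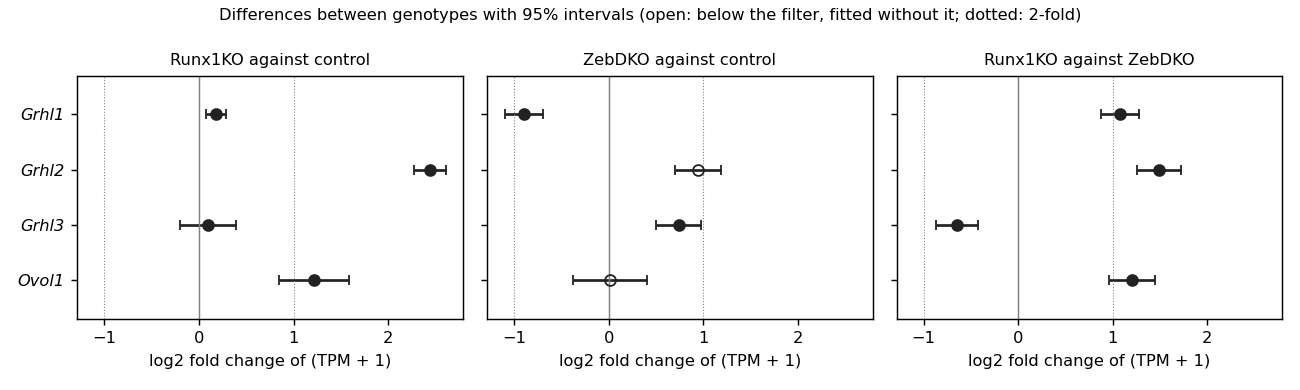
Log2 fold change of (TPM + 1) (horizontal axes) with its 95% interval for Grhl1, Grhl2, Grhl3 and Ovol1 (vertical axis) in 3 comparisons of genotypes, with open points for genes below the filter and dotted lines at 2-fold. Grhl2 and Ovol1 lay above 1 in Runx1KO against control, and Grhl1 and Grhl3 lay on opposite sides of 0 in ZebDKO against control.

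The ATAC-seq regions were deposited in 3 classes, called here opening (more accessible in Runx1KO cells), closing (less accessible) and stable. Regions were counted when their middle lay within 100 kb of the start of a gene or when they overlapped the gene. Around Grhl2 there were 8 opening, 0 closing and 8 stable regions. At least 8 opening regions were found around 1.61% of 18556 protein-coding genes. At least 1 opening region was found around 57.9% of them, at least 1 closing region around 47% and at least 1 stable region around 85.5%. The 8 opening regions of Grhl2 all lay at or upstream of its start, centred at -97.2, -75.4, -73.5, -68.1, -39.9, -26.9, -11.3 and -0.3 kb, and for each of them Grhl2 was the nearest annotated start of any gene. The last one, chr15:37162121-37162936, covered the start site and overlapped a non-coding exon. An opening region covered the start of 2.33% of all genes. Of the 8 stable regions, 6 lay inside the gene and none at its start.

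All 8 opening regions around Grhl2 held the Zeb letters CAGGTG or CAGGTA, or their reverse complements CACCTG or TACCTG, in a window of 300 bases at their middle, which runs past the ends of regions shorter than that. The share was 62.7% over all 9427 opening regions, 18.7% over all closing and 33.3% over all stable regions. Runx letters (TGTGGT, either strand) were in 0 of these 8 windows, beside 21% of all opening windows. Over their whole length, the regions at -68.1, -39.9 and -11.3 kb held Runx letters at 1 position each. Of all opening regions 35.4% held them over their whole length, so the 0 holds for the middle windows only. The windows of 4 upstream regions are printed in full in the direction of Grhl2, from the mm9 genome, with Zeb letters in capitals. The regions at -73.5, -68.1 and -39.9 kb held qPCR amplicons that the study designed at the gene. The window at -26.9 kb held a pair of matches. Windows at -97.2, -11.3 and -0.3 kb also held a pair of matches and are not printed, although the region at -0.3 kb held an amplicon too.
Grhl2 region at -73.5 kb, window chr15:37089164-37089463, plus strand: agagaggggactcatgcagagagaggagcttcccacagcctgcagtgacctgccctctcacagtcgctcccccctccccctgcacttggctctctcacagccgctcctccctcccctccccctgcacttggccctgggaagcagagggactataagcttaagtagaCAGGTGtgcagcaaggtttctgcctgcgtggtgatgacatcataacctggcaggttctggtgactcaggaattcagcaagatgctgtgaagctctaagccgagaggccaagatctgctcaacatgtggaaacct
Grhl2 region at -68.1 kb, window chr15:37094496-37094795, plus strand: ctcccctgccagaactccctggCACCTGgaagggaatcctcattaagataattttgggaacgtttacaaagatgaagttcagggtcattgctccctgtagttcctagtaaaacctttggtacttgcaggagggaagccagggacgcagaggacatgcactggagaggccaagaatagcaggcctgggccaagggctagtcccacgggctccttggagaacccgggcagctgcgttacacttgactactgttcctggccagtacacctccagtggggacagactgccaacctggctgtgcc
Grhl2 region at -39.9 kb, window chr15:37122708-37123007, plus strand: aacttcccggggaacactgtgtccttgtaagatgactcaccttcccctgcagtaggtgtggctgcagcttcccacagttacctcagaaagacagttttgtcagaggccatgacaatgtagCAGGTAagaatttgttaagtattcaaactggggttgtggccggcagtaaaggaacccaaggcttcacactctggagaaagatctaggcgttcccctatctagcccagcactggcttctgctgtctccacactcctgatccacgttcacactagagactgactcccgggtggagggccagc
Grhl2 region at -26.9 kb, window chr15:37135751-37136050, plus strand: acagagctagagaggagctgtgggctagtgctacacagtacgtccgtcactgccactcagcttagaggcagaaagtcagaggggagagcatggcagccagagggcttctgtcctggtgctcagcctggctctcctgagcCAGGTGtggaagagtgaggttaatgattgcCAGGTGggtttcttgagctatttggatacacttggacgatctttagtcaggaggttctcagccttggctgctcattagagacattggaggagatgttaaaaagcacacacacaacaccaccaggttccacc
The window at -39.9 kb held the CAGGTA form, the one at -68.1 kb the reverse complement CACCTG, and the one at -26.9 kb held CAGGTG at both matches. The primers of 6 amplicons of the study were each found as 1 pair in mm9. The amplicons centred at -73.4, -68.2, -39.8 and -0.3 kb lay inside 4 of the opening regions. The amplicon at -32.2 kb lay in a stable region, and the one at -36 kb lay in no region, 3443 bp from the nearest, which was stable. Of the 5 genes, 3 were matched to RefSeq promoters by symbol (Grhl1, Grhl3 and Ovol2), and Grhl2 and Ovol1 were not matched.

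**Figure D3:**
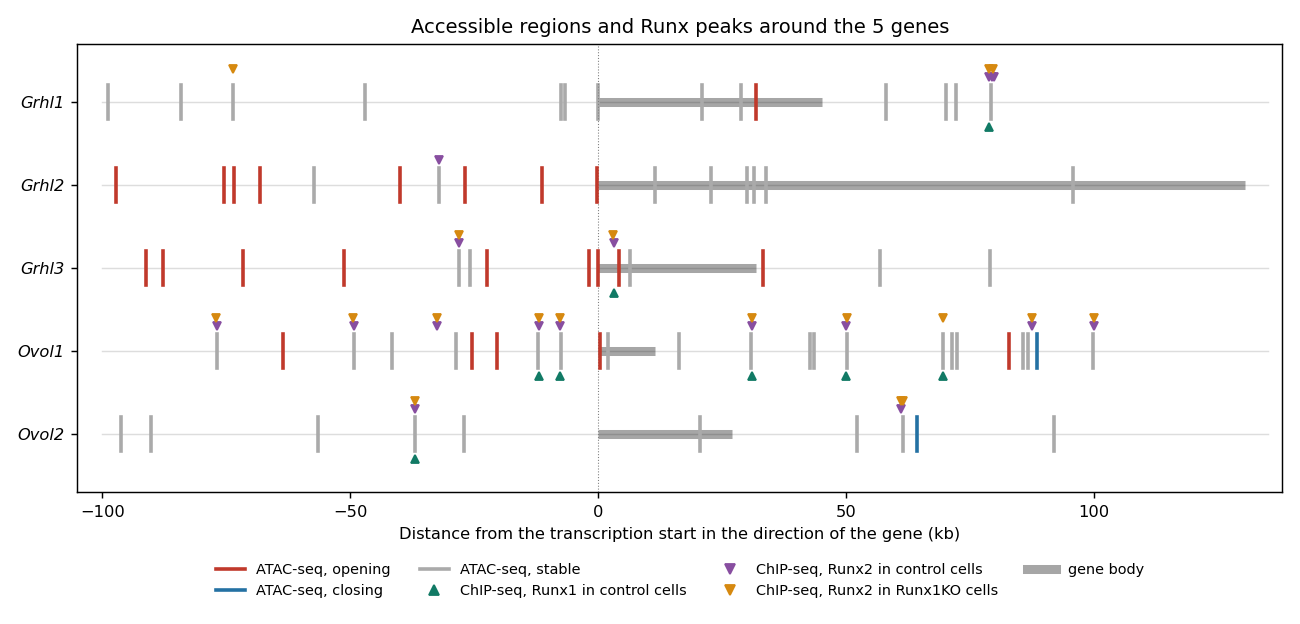
Distance in kb from the transcription start in the direction of each gene (horizontal axis) of ATAC-seq regions by class (vertical lines) and of Runx1 and Runx2 ChIP-seq peaks (triangles) around the 5 genes (vertical axis), with gene bodies as grey bars. Grhl2 and Grhl3 had 8 and 9 opening regions, Grhl1 had 1 opening and 13 stable regions, and Ovol2 had no opening region.

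Grhl1, which is expressed in many epithelia and acts on desmosomal genes in skin, was the most abundant member in every library. It stood at 8.9 TPM in each of the 3 control libraries, at 10.2, 10 and 10.5 TPM in Runx1KO and at 4.8, 4.5 and 3.7 TPM in ZebDKO libraries. The 3 groups did not overlap, with Runx1KO highest and ZebDKO lowest. The table with 2 decimals gave 7.49, 7.89 and 7.93 TPM in control and 9.4, 9.28 and 9.63 TPM in Runx1KO libraries, which did not overlap either. Between Runx1KO and control the log2 fold change was 0.18 (95% interval 0.08 to 0.29, adjusted p = 0.00800), far short of 2-fold. Grhl1, Grhl2 and Ovol1 passed an adjusted p of 0.05 in this comparison, all 3 higher, beside 70.5% of all tested genes in either direction, 30.4% higher and 40.1% lower. In 1 fit over all 9 libraries the adjusted p of Grhl1 was 0.0533.

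In ZebDKO cells Grhl1 fell by 0.90 on the log2 scale (95% interval -1.10 to -0.70, adjusted p = 4.53e-05), which passed the test but not the 2-fold limit on the log2(TPM+1) scale (ratio of mean TPM 0.487), beside 52.5% of tested genes that were lower at an adjusted p under 0.05 whatever their fold. After median-ratio scaling the value was -0.73, with the direction kept. Set directly against ZebDKO, Grhl1 was higher in Runx1KO by 1.08 (95% interval 0.88 to 1.28, adjusted p = 1.57e-05). This call sat on the 2-fold limit, since the value was 0.94 after median-ratio scaling and 0.99 without ZebDKO replicate 3, the library with the lowest Grhl1.

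The start of Grhl1 was covered by a stable region, chr12:25256744-25257622, as was that of 45.8% of all genes. The promoter of Grhl1 at this start is printed because it was open in both genotypes and held no Zeb letters (RefSeq, GRCm38.p6, chr12:24572037-24572316 on the plus strand, 250 bases before to 30 after the start).
Grhl1 promoter: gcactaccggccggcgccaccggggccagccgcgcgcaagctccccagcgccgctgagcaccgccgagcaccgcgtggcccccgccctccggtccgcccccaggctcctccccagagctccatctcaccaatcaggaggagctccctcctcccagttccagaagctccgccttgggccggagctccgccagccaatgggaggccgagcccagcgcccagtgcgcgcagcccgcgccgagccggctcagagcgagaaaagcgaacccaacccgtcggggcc
Of 32544 RefSeq promoters of 300 bases, 29.3% held Zeb letters. Outside this promoter, the stable region over the start held Zeb letters at 2 positions. Another RefSeq promoter of Grhl1, chr12:24580469-24580768 of GRCm38.p6, held no Zeb letters and lay in no ATAC-seq region. The only opening region at Grhl1, chr12:25288853-25289231, lay in an intron 31.9 kb downstream of the start. Its middle window is printed as the single place at this gene where accessibility was higher in Runx1KO cells, and it held CAGGTG at 2 positions, in capitals, and Runx letters at 1.
Grhl1 region at 31.9 kb, window chr12:25288893-25289192, plus strand: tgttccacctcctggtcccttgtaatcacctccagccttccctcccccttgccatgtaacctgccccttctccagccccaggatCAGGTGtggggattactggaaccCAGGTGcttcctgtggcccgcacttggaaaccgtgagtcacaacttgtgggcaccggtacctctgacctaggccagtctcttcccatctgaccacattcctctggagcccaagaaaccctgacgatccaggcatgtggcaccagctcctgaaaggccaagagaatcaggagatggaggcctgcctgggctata
The other 13 regions around Grhl1 were stable, and 0 were closing.

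Grhl3, the member required for the epidermal barrier and for closure of the neural tube, rose in ZebDKO cells, short of the 2-fold limit on the log2(TPM+1) scale (ratio of mean TPM 2.09), and overlapped control in Runx1KO cells. It stood at 1.3, 1.9 and 1.5 TPM in control, at 1.9, 1.4 and 1.9 TPM in Runx1KO and at 3.3, 3.2 and 3.3 TPM in ZebDKO libraries. The control and Runx1KO groups overlapped, and every ZebDKO library lay above all 6 of them. The table with 2 decimals gave 0.54, 0.72 and 0.79 TPM in control and 0.87, 0.77 and 0.93 TPM in Runx1KO libraries, which overlapped as well. The log2 fold change between Runx1KO and control was 0.09 (95% interval -0.20 to 0.39, adjusted p = 0.532), an interval that leaves room for a change of up to 0.39 on this scale. After quantile normalization the value was -0.05 (adjusted p = 0.706). In ZebDKO against control it was 0.74 (95% interval 0.50 to 0.98, adjusted p = 0.000306), past the test but not the 2-fold limit, beside 26.9% of tested genes that were higher at an adjusted p under 0.05. The value was 0.88 after median-ratio scaling. In the direct comparison Grhl3 was lower in Runx1KO than in ZebDKO cells by a log2 fold change of -0.65 (95% interval -0.87 to -0.42, adjusted p = 0.000457), and of -0.76 after median-ratio scaling.

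Grhl3 had the largest number of opening regions of the 5 genes, at 9, with 0 closing and 5 stable ones. They were centred at -91.2, -87.8, -71.7, -51.2, -22.5, -1.8, 0, 4.3 and 33.3 kb from the start. For only 3 of the 9 was Grhl3 the nearest annotated start, namely those at -1.8, 0 and 4.3 kb. The region chr4:135129392-135129704 covered the start site, and the region at 4.3 kb, chr4:135125104-135125466, lay in an intron. Zeb letters were in the middle 300 bases of 6 of the 9 regions, including those 3, and Runx letters in 5. Over all opening regions these shares were 62.7% for Zeb letters and 21% for Runx letters. The promoter of Grhl3 is printed because it matched mm9 exactly inside and next to the opening region at the start, and it held Zeb letters at 3 positions, in capitals (RefSeq, GRCm38.p6, chr4:135573603-135573882 on the minus strand, 250 bases before to 30 after the start).
Grhl3 promoter: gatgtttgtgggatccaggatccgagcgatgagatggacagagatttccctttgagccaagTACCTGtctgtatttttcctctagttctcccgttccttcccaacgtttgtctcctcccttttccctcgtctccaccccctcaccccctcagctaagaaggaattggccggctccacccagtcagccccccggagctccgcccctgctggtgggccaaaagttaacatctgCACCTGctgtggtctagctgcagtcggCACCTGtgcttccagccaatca
The 3 matches began at -189, -19 and 8 bases from the start. The opening region held Zeb letters at 2 positions over its whole length, and the match at -189 lay outside it. The start of Grhl3 was thus in the opening class in a comparison in which its RNA did not pass the test. The series holds no ATAC-seq of ZebDKO cells.

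Ovol1, a repressor that acts in epidermal differentiation, rose in Runx1KO cells, and its ZebDKO libraries overlapped those of control. It stood at 0.4, 1 and 0.8 TPM in control, at 2.9, 2.6 and 3.5 TPM in Runx1KO and at 0.8, 0.7 and 0.7 TPM in ZebDKO libraries. All 3 Runx1KO libraries lay above the other 6, and the control and ZebDKO groups overlapped. In Runx1KO against control 3 of the 4 genes tested had groups that did not overlap (Grhl1, Grhl2 and Ovol1), as did 73.7% of all tested genes. The log2 fold change of Ovol1 in that comparison was 1.22 (95% interval 0.85 to 1.58, adjusted p = 0.000332). The table with 2 decimals gave 0.18, 0.44 and 0.24 TPM in control and 1.14, 1.26 and 1.66 TPM in Runx1KO libraries, a ratio of means of 4.72. On the lower levels of that table the log2 fold change was 0.87 (adjusted p = 0.000422), which passed the test and missed the 2-fold limit. In ZebDKO against control Ovol1 was below the filter, and a fit without it gave 0.02 (95% interval -0.37 to 0.40, adjusted p = 1). In Runx1KO against ZebDKO it was higher by 1.20 (95% interval 0.96 to 1.44, adjusted p = 2.55e-05), and by 1.10 after median-ratio scaling.

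Around Ovol1 there were 5 opening, 1 closing and 18 stable regions. The opening region chr19:5559810-5560482 was centred 0.4 kb downstream of the start, within the gene and over coding sequence, and it was the only opening region for which Ovol1 was the nearest start. The others lay at -63.5, -25.4, -20.4 and 82.8 kb, nearer to the starts of Rela, Rnaseh2c, Gm962 and Efemp2. Zeb letters were in the middle windows of 4 of the 5 opening regions, beside 62.7% of all opening windows. The closing region lay at 88.5 kb, also nearest to Efemp2.

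Ovol2, which restrains Zeb1 in several epithelia, was listed at 0 in all 9 libraries and in all 6 libraries of the table with 2 decimals. It passed no filter, so no difference could be measured, and a value listed at 0 does not give the number of reads behind it. It had 0 opening, 1 closing and 9 stable regions, and no region of any class covered its start. The closing region lay at 64.3 kb, nearest to the start of Snord17. Its RefSeq promoter (chr2 of GRCm38.p6) held neither Zeb nor Runx letters and is not printed.

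The summed level of the Grainyhead-like genes and its make-up differed between genotypes. The 3 genes together amounted to 10.6 ± 0.306 TPM (SD, n = 3) in control, 16.9 ± 0.473 TPM in Runx1KO and 8.73 ± 0.723 TPM in ZebDKO cells. Grhl2 made up 0.947 ± 0.0271% of this sum in control, 29.4 ± 1.09% in Runx1KO and 12.9 ± 2.16% in ZebDKO cells (SD, n = 3). Grhl3 made up 14.8 ± 2.44% in control, 10.2 ± 1.45% in Runx1KO and 37.6 ± 3.63% in ZebDKO cells. The share of Grhl1 was 84.3 ± 2.42% in control, 60.4 ± 0.699% in Runx1KO and 49.5 ± 2.67% in ZebDKO cells. Thus both knockouts had more of the sum in Grhl2 than control cells had, while the remainder differed, with Grhl3 larger in ZebDKO. In the table with 2 decimals the share of Grhl2 was 0.550 ± 0.0800% in control and 19.8 ± 0.320% in Runx1KO cells, and the cause of this difference between the tables was not tested.

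**Figure D4:**
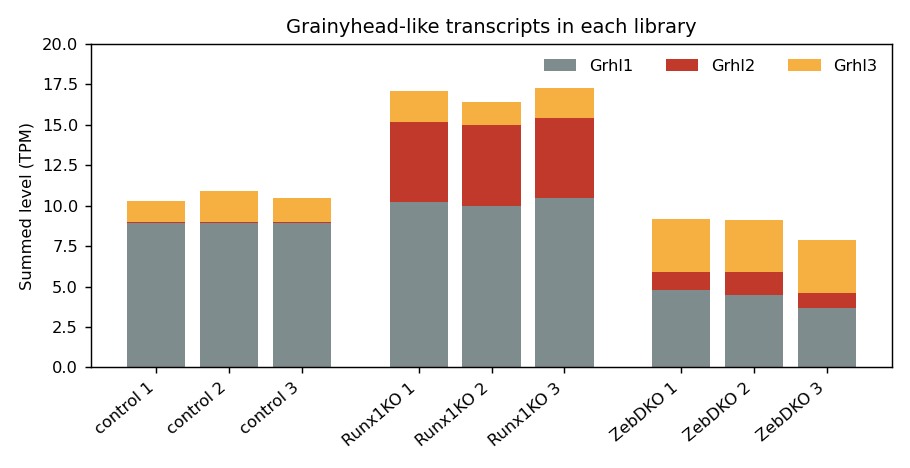
Summed level in TPM (vertical axis, from 0) of Grhl1, Grhl2 and Grhl3 in each of the 9 libraries (horizontal axis), stacked by gene. The sums were 10.3 to 10.9 TPM in control, 16.4 to 17.3 TPM in Runx1KO and 7.9 to 9.2 TPM in ZebDKO libraries, and Grhl2 took up 0.947% of the sum on average in control libraries, 29.4% in Runx1KO and 12.9% in ZebDKO libraries.

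By mean TPM the order of levels in control cells was Grhl1, Grhl3, Ovol1, Grhl2 and Ovol2. Neighbours in that order did not overlap. In Runx1KO cells the order was Grhl1, Grhl2, Ovol1, Grhl3 and Ovol2, again without overlap between neighbours. In ZebDKO cells it was Grhl1, Grhl3, Grhl2, Ovol1 and Ovol2, where Grhl2 at 0.9 TPM and Ovol1 at 0.8 TPM were 1 step of rounding apart.

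Over the 5 genes together there were 23 opening, 2 closing and 53 stable regions. Zeb letters were in the middle 300 bases of 19 of the 23 opening regions (82.6%, beside 62.7% of all opening regions), 0 of the 2 closing and 14 of the 53 stable ones (26.4%, beside 33.3% of all stable regions). Runx letters were in 7 of the 23 opening windows (30.4%, beside 21% of all opening windows). Over their whole length, 14 of the 23 opening regions held them (60.9%, beside 35.4% of all opening regions). The Grainyhead consensus, AACC followed by GGTT with 0 or 1 base between them, was in 0 of the 23 opening, 2 closing and 53 stable regions over their whole length, and in 0.785% of all opening regions. The Ovo-like letters CCGTTA were in 0 of the 23 opening windows, beside 1.79% of all opening windows. Matches and their absence describe these letters only.

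In control cells 8 Runx1 peaks were counted, 5 around Ovol1, 1 each around Grhl1, Grhl3 and Ovol2, and 0 around Grhl2, beside 63.9% of all genes with at least 1. At least 5 Runx1 peaks were found around 4.73% of all genes. By nearest annotated start the count was 1, at Grhl3, and 0 at Ovol1. None of the 23 opening regions overlapped a Runx1 peak or a Runx2 peak of either genotype by at least 1 bp, and over all opening regions 1.25% overlapped a Runx1 peak, 3.64% a Runx2 peak of control cells and 3.28% a Runx2 peak of Runx1KO cells. With shares that low, 0 of 23 is near the background and is not a result about the 5 genes. At Grhl3 a Runx1 peak was centred 3.2 kb downstream of the start in an intron, chr4:135126262-135126463, with a fold enrichment over local background of 4.79 and Runx letters at 1 position. Runx2 peaks lay at the same place in control cells (fold enrichment 5.60) and in Runx1KO cells (fold enrichment 6.55), and this place was in no ATAC-seq class. At Grhl2 a single Runx2 peak was listed in control cells, at -32.1 kb in a stable region, with a fold enrichment of 3.18 and a -log10 q of 1.83, short of a q-value of 0.01. It was absent from the Runx1KO list. Runx2 peaks numbered 17 in control and 18 in Runx1KO cells over the 5 genes, beside 78.5% and 74.6% of all genes with at least 1. The lists were called on combined replicates, so no spread between replicates is known for them, and different numbers of peaks between lists cannot be tested.

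Of 30 epithelial genes tied to Grainyhead factors in general knowledge, 13 rose and 1 fell in Runx1KO against control, 2 were tested and not called, and 14 were below the filter. Of the 13, 7 reached 1 TPM in no control library, so they passed the filter only through the group where they were high. The median difference over all 30 genes, without the filter, was 0.30 on the log2(TPM+1) scale, beside 0 over all 24953 genes, and 7.91% of all tested genes were called higher. Cldn4, a tight junction claudin, rose from 0, 0 and 0.4 TPM to 233.8, 223.8 and 237.2 TPM (log2 fold change 7.70, adjusted p = 1.89e-08). Itgb4, the hemidesmosomal integrin, rose from 0.533 ± 0.0577 to 61.9 ± 2.21 TPM (SD, n = 3, log2 fold change 5.36). Sfn, a 14-3-3 protein of epithelial cells, rose from 3.13 ± 0.115 to 99.2 ± 5.63 TPM (log2 fold change 4.60). The one that fell was Nectin4, an adherens junction protein named after its values were seen, from 2.47 to 0.567 TPM. Cdh1, which encodes E-cadherin, stood at 0.1 to 0.3 TPM in the Runx1KO libraries and was not tested.

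Of the same 30 genes, 11 rose in ZebDKO against control, 1 fell, which was again Nectin4, 4 were tested and not called and 14 were below the filter, beside 7.49% of all tested genes called higher and 7.28% called lower. After median-ratio scaling Nectin4 was at -0.95 and no longer called. The median difference over all 30 was 0.25, and 7 of the 11 reached 1 TPM in no control library. Lsr, a protein of tricellular junctions, rose from 0.333 ± 0.153 to 58.2 ± 1.8 TPM (log2 fold change 5.48), and Cldn4 rose to 47.3 ± 2.6 TPM (log2 fold change 5.43). Epcam, a surface marker of epithelia, was listed at 0 in all control and Runx1KO libraries and at 28.3, 26.7 and 28.8 TPM in ZebDKO. In the direct comparison 7 of the 30 were higher and 3 lower in Runx1KO than in ZebDKO, 8 were tested and not called and 12 were below the filter, beside 9.2% of all tested genes called higher and 6.59% called lower. The 3 that were lower were Epcam, St14 and Lsr, of which St14 is named after its values were seen. Epcam and St14 reached 1 TPM in no Runx1KO library, so they passed the filter only through ZebDKO, where they were high. The count of lower genes is therefore no support by itself. The median difference over all 30 was 0. The largest differences there were those of Epcam, of Cldn4 (log2 fold change 2.27, adjusted p = 3.83e-08) and of Evpl, an envelope protein of stratified epithelia (log2 fold change 2.27, from 1.20 ± 0.200 TPM in ZebDKO to 9.57 ± 0.643 TPM in Runx1KO). The summed simple epithelium markers given above, which share Cdh1 and Epcam with this list, were also higher in both knockouts than in control. Between the knockouts that sum was 2421 to 2513 TPM in Runx1KO and 1103 to 1158 TPM in ZebDKO. Most of it was Krt8, which is not in the list.

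**Figure D5:**
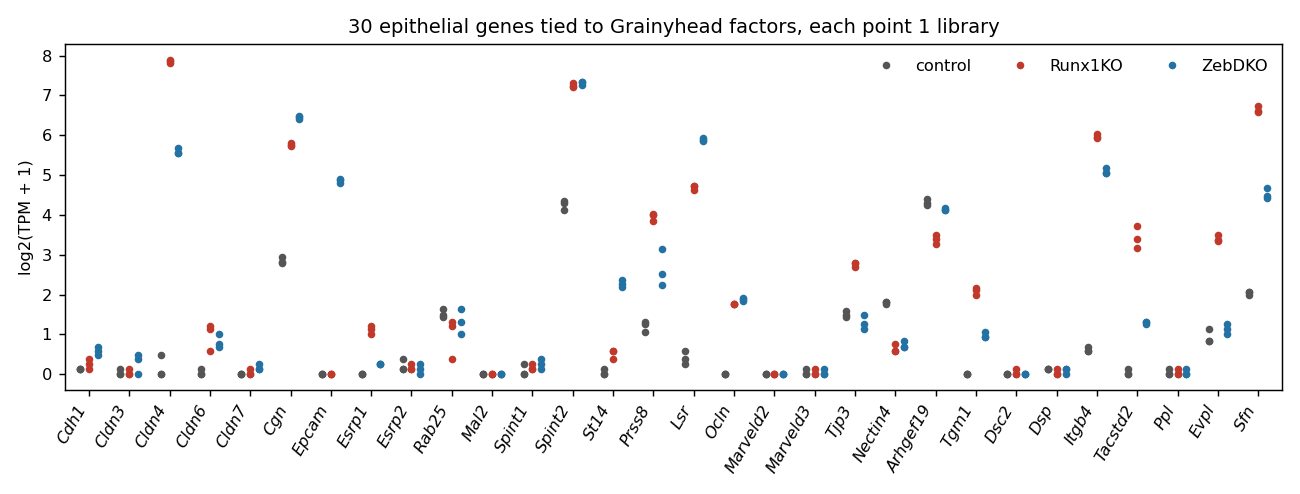
Level as log2(TPM + 1) (vertical axis) of 30 epithelial genes tied to Grainyhead factors (horizontal axis) in each library of control, Runx1KO and ZebDKO cells, each point 1 library. Cldn4, Itgb4 and Sfn were highest in Runx1KO, Epcam and Lsr were highest in ZebDKO, and Cdh1 stayed under 1 TPM in all 9 libraries.

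Of 16 other epithelial transcription factors, 4 rose and 0 fell in Runx1KO against control, 7 were tested and not called and 5 were below the filter, beside 7.91% of all tested genes called higher and 5.1% called lower. Elf3, an Ets factor of epithelia, rose from 32.0 ± 2.86 to 121 ± 2.26 TPM (log2 fold change 1.89), Foxa1, a forkhead pioneer factor, from 10.7 ± 1.10 to 34.6 ± 1.12 TPM (1.61 on the log2 scale), and Ehf from 1.03 ± 0.306 to 3.53 ± 0.569 TPM (1.16 on the log2 scale). The fourth, Klf5, is named after its values were seen and rose from 105 ± 5.57 to 213 ± 2.77 TPM. Klf5 was no longer called without control replicate 2 or 3 (0.99 on the log2 scale in both), nor was Ehf after quantile normalization (0.99) or in the 6-library table (0.85). Of these 16, 2 rose in ZebDKO against control, Elf3 to 128 ± 6.26 TPM and Foxa1 to 41.5 ± 2.07 TPM, and 0 fell, beside 7.49% of all tested genes called higher. In the direct comparison only Tfap2a was called, at 9.10 ± 0.173 TPM in Runx1KO and 3.5 ± 0.200 TPM in ZebDKO cells (log2 fold change 1.17, and 0.92 with no call after quantile normalization), beside 9.2% of all tested genes called higher. The median difference over the 16 was 0.10 in Runx1KO and 0.04 in ZebDKO against control.

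Of 12 mesenchymal factors chosen as opposed to Ovo-like and Grainyhead-like proteins, a list that holds the targeted Zeb1 and Zeb2, 3 fell and 1 rose in Runx1KO against control, 5 were tested and not called and 3 were below the filter, beside 5.1% of all tested genes called lower and 7.91% called higher. Zeb1 fell by 3.77 and Zeb2 fell by 2.37 on the log2 scale, while Snai3, of the Snail family, rose by 3.67, from 1.53 ± 0.751 to 30.3 ± 0.458 TPM. Twist2, named after its values were seen, fell from 915 ± 23.2 to 351 ± 4.37 TPM. In ZebDKO against control Zeb2 (-1.20 on the log2 scale) and Prrx2 (-1.09, from 50.1 ± 5.29 to 22.9 ± 1.03 TPM) fell and Snai3 rose by 2.37, beside 7.28% of all tested genes called lower and 7.49% higher. Prrx2 was no longer called at -0.89 after median-ratio scaling and -0.94 after quantile normalization. In the direct comparison Zeb1, Zeb2 and Snai1 were lower and Snai3 was higher in Runx1KO, with log2 fold changes of -3.87 for Zeb1, 1.31 for Snai3 and -1.17 for Zeb2, beside 6.59% of all tested genes called lower and 9.2% higher. Snai1 stood at 14.2, 13.5 and 10.1 TPM in Runx1KO and at 26.9, 23 and 30.8 TPM in ZebDKO libraries, and is named after its values were seen. It was no longer called without Runx1KO replicate 3 (-0.90) or without ZebDKO replicate 3 (-0.94). The median difference over the 12 was -0.41 in Runx1KO and -0.02 in ZebDKO against control.

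Of 4 relatives of the 5 genes, the CP2 factors Tfcp2, Tfcp2l1 and Ubp1 and the zinc finger gene Ovol3, all were tested and 1 was called, Tfcp2l1 in ZebDKO against control. It fell from 17.2, 15.2 and 17.1 TPM to 7.2, 8.3 and 7.4 TPM (log2 fold change -1.02, adjusted p = 1.04e-05), beside 7.28% of all tested genes called lower. This call sat on the 2-fold limit and was lost after median-ratio scaling (-0.83), after quantile normalization (-0.81), and without control replicate 1, control replicate 3 or ZebDKO replicate 1 (-0.99 to -0.98). Ovol3 was listed at 10.4 to 13 TPM in control, 8.3 to 10 TPM in Runx1KO and 6.8 to 8 TPM in ZebDKO libraries. The table with 2 decimals listed it at 0 to 0.13 TPM in control and 0 to 0.09 TPM in Runx1KO cells, so its level is uncertain. The strand setting and the version of the gene models behind each table are not stated in the sources used here.

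The genes with the profile most like that of each gene over the 9 libraries were found by the root mean square difference of centred log2(TPM+1), out of 13373 other genes. For Grhl2, whose own profile had a root mean square of 1.01, they included Nap1l3 (0.0877), Mybph (0.116), Dennd2d (0.121) and Gpr4 (0.127). Nap1l3, the nearest of them, had mean levels of 1.1 TPM in control, 9.23 TPM in Runx1KO and 2.6 TPM in ZebDKO cells. For Ovol1, with a root mean square of 0.589, they were Sfrp5 (0.0984), Tbc1d16 (0.115), Akna (0.131), Kcnk7 (0.133) and Stkld1 (0.143), of which Sfrp5, a secreted Wnt antagonist, had means of 0.1, 1.5 and 0.133 TPM in the same order of genotypes. For Grhl1, with 0.478, they were Ing5 (0.0528), Fdxacb1 (0.0588), N4bp2 (0.0600), Kctd6 (0.0634) and Hspb11 (0.0638). For Grhl3, with 0.347, they were Nlrp4c (0.0830), Snd1 (0.0906), Scrib (0.0955), Atp6v0a4 (0.0970) and Efl1 (0.0983). Scrib, a polarity protein, had means of 26.9 TPM in control, 29.2 TPM in Runx1KO and 44.0 TPM in ZebDKO cells. The 9 points of a profile fall into 3 genotypes, so a small difference describes the order of 3 levels and no more.

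The other marker lists gave these ranges of summed TPM. The 11 metanephric mesenchyme markers summed to 509 to 521 TPM in control, 537 to 615 TPM in Runx1KO and 342 to 366 TPM in ZebDKO libraries. Most of that sum was Pax2, which measured 313 ± 2.78 TPM in control against 470 ± 35.7 TPM in Runx1KO cells and was not called. Of the 6 markers tested in Runx1KO against control 0 were called higher and 3 lower. Osr1 fell from 66.4 ± 3.87 to 0.4 ± 0.1 TPM, Gdnf from 12.7 ± 1.15 TPM to 0.1 TPM in each library, and Eya1 from 16.2 ± 0.379 to 5.87 ± 0.404 TPM. The part of these markers in the results on the 5 genes was not tested. In the same order of genotypes, the 6 stratified epithelium markers summed to 1.9 to 3.8, 10.8 to 12.6 and 4.1 to 6.3 TPM. The 4 endothelial markers summed to 2.9 to 4.6, 1 to 1.3 and 3.6 to 5.8 TPM, most of it Cdh5. The 4 ureteric bud markers summed to 67.7 to 75.2, 84.9 to 96.9 and 93.6 to 108 TPM, with Ret listed at 0 throughout. Nearly all of this last sum was Hoxb7, with means of 70.4, 90.0 and 99.8 TPM. The 4 immune markers summed to 126 to 129, 121 to 125 and 78.9 to 89.7 TPM, nearly all of it Cd14, while Ptprc, the marker of all leukocytes, was listed at 0 in every library.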

How the data were processed

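Expression was read from TPM tables that the authors deposited, 1 of 9 libraries with 1 decimal and 1 of 6 libraries (control and Runx1KO) with 2 decimals. Per the submitters' processing notes, reads were trimmed with Trim Galore, counted with featureCounts 1.6.2 (over RefSeq genes, per the study's methods) and compared with DESeq2 1.26.0, and peaks were called with MACS2. TPM keeps no read depth. The study's methods state a lower limit on reads per sample, but the depth of each library was not available here, so no counting interval is given. Peak lists were deposited with mm9 coordinates. For ATAC-seq the authors kept regions present in at least 2 of 3 replicates and split them into 3 classes by their change between genotypes, and the deposited fold changes and p-values of those lists were not used. For ChIP-seq the authors called peaks on combined replicates, removed Runx1 peaks found in Runx1KO cells, and deposited a fold enrichment (a ratio to local background) and a −log10 q-value for each peak. Columns of unknown samples numbered 0.

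Here log2(TPM+1) was fitted with limma 3.58.1 in R 4.3.3 with a mean-variance trend, on the 6 libraries of each comparison and on genes that reached 1 TPM in 3 or more of them, with Benjamini-Hochberg adjustment over all genes tested. Calls needed 2-fold and an adjusted p under 0.05. With 3 libraries against 3 an exact permutation test of 1 gene cannot go below p = 0.1, so none is given. The code was tested on simulated data, where 98.9% of 89 genes changed by 1.5 on the log2 scale were recovered among 13067 genes in Runx1KO against control.

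Regions within 100 kb of a start or over the gene were counted against GENCODE vM1, and letters were searched on both strands with pysam 0.24.0, the Zeb letters as CAGGTG or CAGGTA, the Runx letters as TGTGGT and the Ovo-like letters as CCGTTA. RefSeq promoters are of build GRCm38.p6 and were placed in mm9 by exact match, never by conversion. Protein sequences were not analysed here. Genes named beyond the 5 were the 3 of each gene list with the largest called change in each comparison and the 5 nearest profiles of each gene, of which 1 is not reported here. Marker lists are given by their sums with a few markers named, and other genes were named after their values were seen. The genes, the lists (epithelial genes tied to Grainyhead factors, other epithelial transcription factors, mesenchymal factors, relatives, and cell type markers) and the named-gene rule were chosen with earlier results of these data known. Alternatives covered the pseudocount, the filter, the scaling, the design, the fold limit, each library left out, the 6-library table, and the distance and rule for counting regions. For the list genes, the scaling, left-out libraries and the 6-library table were tried after seeing the data.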

Additional observations from a re-analysis of the deposited data

Results flagged for a closer look

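The comparisons of both knockouts with control were set against each other directly, as Runx1KO against ZebDKO, and in 4 of the 5 genes the difference passed the test of the difference itself in limma at an adjusted p under 0.05, as it did for 80% of 13071 tested genes. Groups did not overlap for 81.7% of the tested genes. Grhl2 and Ovol1 had passed the filter with Runx1KO as the only group with all 3 libraries at 1 TPM, so the count is no support by itself. Grhl1 was higher in Runx1KO by 1.08 on the log2(TPM+1) scale, in 3 of 3 libraries above every ZebDKO library. Grhl2 was higher by 1.49, again without overlap of the libraries. Ovol1 was higher by 1.20 without overlap. Grhl3 went the other way, with a log2 fold change of -0.65, and all 3 of its Runx1KO libraries lay below all 3 of its ZebDKO libraries.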

How the results depend on the processing

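Of 175 values of the 5 genes under all settings, 165 kept their direction and their side of the threshold. With a limit of 1.3-fold in place of 2-fold, calls numbered 2413 higher and 2444 lower in Runx1KO against control, 2244 and 4502 in ZebDKO against control, and 4376 and 2404 in Runx1KO against ZebDKO, and Grhl1 (-0.90) and Grhl3 (0.74) in ZebDKO against control and Grhl3 (-0.65) in Runx1KO against ZebDKO were called. A filter of 5 TPM gave 442 lower in Runx1KO against control and 566 lower in Runx1KO against ZebDKO, and no value for Grhl2, Grhl3 or Ovol1, which did not reach it in enough libraries. With 0.1 added to TPM, Grhl1 (-1.03) and Grhl3 (1.03) were called in ZebDKO against control. In Runx1KO against ZebDKO Grhl1 was no longer called at 0.94 after median-ratio scaling, 0.82 after quantile normalization and 0.99 without ZebDKO replicate 3. Grhl3 in Runx1KO against control turned to -0.0529 after quantile normalization, with neither value past the test. The 6-library table gave 0.87 for Ovol1, shares of 0.550% and 19.8% for Grhl2 in control and Runx1KO, and no fit for Grhl3. The cause of these shifts was not tested.

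With 1 library left out at a time, calls ranged from 1018 to 1041 higher and 660 to 681 lower in Runx1KO against control, 961 to 981 and 930 to 993 in ZebDKO against control, and 1175 to 1247 and 847 to 879 in Runx1KO against ZebDKO. In Runx1KO against control Grhl1 ranged from 0.17 to 0.20, Grhl2 from 2.44 to 2.45, Grhl3 from 0.02 to 0.18 and Ovol1 from 1.07 to 1.33. In ZebDKO against control Grhl1 ranged from -0.96 to -0.81 and Grhl3 from 0.66 to 0.83. In Runx1KO against ZebDKO Grhl1 ranged from 0.99 to 1.14, Grhl2 from 1.41 to 1.58, Grhl3 from -0.69 to -0.56 and Ovol1 from 1.11 to 1.27. With the replicate number as a block, calls numbered 1040 and 669, 977 and 945, and 1207 and 864 in the same order, and no call of the 5 genes changed. The numbers did not pair the libraries, since deviations of same-numbered libraries from their group means correlated at r between -0.0495 and 0.0399.

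Counts of regions moved with the distance by construction. Within 50 kb of a start or over the gene there were 13 opening, 0 closing and 29 stable regions and 5 Runx1, 10 Runx2 (control) and 8 Runx2 (Runx1KO) peaks. Within 200 kb these were 42, 6, 107, 18, 37 and 37, and by nearest annotated start 13, 0, 10, 1, 2 and 1. A filter of 0.5 TPM, chosen after seeing the data, gave Grhl2 an adjusted p of 0.000144 in ZebDKO against control by limma. TPM printed with 1 decimal limits what can be said of Grhl2 in control cells and of Ovol2.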
